A study of Mus musculus with 5 samples.

Results

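The glycolytic enzymes examined here were the products of 10 genes, Hk1, Hk2, Pfkl, Pfkm, Aldoa, Gapdh, Pgk1, Pkm, Ldha and Ldhb, measured by RNA-seq in cultured neural precursor cells. The members were found by gene name in the per-library abundance tables, and all 10 were among the 46078 genes of every table. Each of them reached a mean of at least 1 TPM (a length-normalised share of the mRNA of a library), as did 13870 genes in all. A separate table of read counts covered 7599 genes and listed 7 members, without Gapdh, Pgk1 and Ldha.

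The cells were neural stem and precursor cells from the subventricular zone of adult C57BL/6 mice without mutation, labelled as female and 5 to 8 weeks old (the methods of the study give an older age). They had been grown as undifferentiated cultures, were plated on poly-D-lysine and received PBS alone as a sham exposure. RNA was collected 1 h later in 2 libraries (replicates 1 and 2) and 8 h later in 3 libraries (replicates 13, 14 and 15), which the study describes as biological replicates. No library of untouched cells at time 0 was analysed here, so the comparison is between times after a medium supplement, and the libraries of cells given hydrogen peroxide were not analysed here.

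Glycolysis splits glucose into pyruvate and yields ATP and NADH without oxygen. Hexokinase traps glucose in the cell, phosphofructokinase commits it to the pathway, aldolase splits the sugar, and the later enzymes recover ATP before lactate dehydrogenase turns pyruvate into lactate and regenerates NAD+. Several steps have more than one isozyme encoded by separate genes, and neural stem cells are known for a high use of glycolysis that falls as they become neurons.

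The identity and comparability of the libraries were checked first. All 9 neural precursor markers had a mean above 1 TPM (Sox2 between 181 and 228 TPM, Nes between 690.1 and 784 TPM). By the mean over the 5 libraries, 0 of 5 microglia and 0 of 5 red blood cell markers reached that level. The microglia marker P2ry12 was above it at 1 h, with 1.41 and 1.29 TPM, and below it at 8 h, with 0.411 to 0.569 TPM. Library identifiers formed 2 number series, with both 1 h libraries and 8 h replicate 14 in series 1 and 8 h replicates 13 and 15 in series 2. The share of TPM from the mitochondrial genome was 10.7% to 11.1% in series 1 and 6.23% to 6.30% in series 2. Xist, the RNA of the inactive X chromosome, was at 165 and 199.7 TPM in series 2 and at most 0.061 TPM in series 1, and the sum of 4 Y-linked genes was at 138 to 181 TPM in series 1 alone, so the 3 libraries of series 1 went against their female label. Leaving those 3 out would leave no 1 h library, and values within series 1, or with the series as a term, are therefore given beside the results below. Series 2 has no 1 h library, so either value compares 8 h replicate 14 alone with the 1 h libraries. Cell markers split by series as well. Both series 2 libraries were above all of series 1 for 7 of 9 neural precursor markers (Top2a, a gene of dividing cells, at 324 and 376 TPM against 147 to 161) and for 4 of 5 mature astrocyte markers (Gfap at 26.0 and 47.2 TPM against 1.81 to 4.35, Aqp4 at 30.7 and 45.2 against 7.33 to 12.04). They were below series 1 for 3 of 6 neuron markers (Tubb3 at 19.0 and 19.3 TPM against 37.4 to 42.9). In each of the precursor and neuron lists 1 marker went the other way. Nes was lower in series 2, at 690 and 699 TPM against 736 to 784, and Snap25 was higher, at 13.0 and 15.8 TPM against 10.3 to 10.8. The summed mature astrocyte markers stood at 491 to 629 TPM in series 1 and 821 to 827 TPM in series 2, and the summed neuron markers at 278 to 467 and 216 to 243 TPM. The highest neuron sum, that of 8 h replicate 14, held Map2 at 405 TPM, against 173 to 217 TPM in the other libraries. The part of these differences in the values of the members was not tested. Count totals ran from 13988166 to 18572154 reads, but 8 h count columns did not follow the TPM tables of the same name. The column named 8 h replicate 13 was within 0.1 on the log2 scale of the TPM table of 8 h replicate 14 for 78.2% of genes and of its own for 24.8%. The column named 8 h replicate 15 was that close to the table of 8 h replicate 13 for 78.3% of genes and to its own for 41.0%. For the 1 h columns and their own tables the share was 77.2%. The column named 8 h replicate 14 resembled no table closely (at most 39.0%).

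The 10 members together took 0.484% to 0.56% of all TPM, and their levels spanned more than 2 orders of magnitude. Pkm, the pyruvate kinase gene, ranked highest with 1235 ± 60.1 TPM (SD, 5 libraries), at place 89 among the 13870 genes. Hk2 ranked lowest with 7.58 ± 1.63 TPM. Between them came Gapdh (929.6 ± 74.0), Pgk1 (925 ± 104), Aldoa (777 ± 52.8), Ldha (554 ± 91.7), Ldhb (446 ± 72.5), Hk1 (111 ± 17.6), Pfkm (92.2 ± 7.18) and Pfkl (25.1 ± 3.59 TPM). Neighbours in this order whose ranges over the 5 libraries overlapped were Gapdh and Pgk1, Pgk1 and Aldoa, Ldha and Ldhb, and Hk1 and Pfkm. The other 5 steps in the order were without overlap. This order is that of TPM, and it differed by coverage, as given further on. The lower pathway was thus more abundant in mRNA than the 2 early kinase steps. Within a gene the spread was narrow, from 1.13-fold between the lowest and highest library for Pkm to 1.73-fold for Hk2.

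**Figure D1:**
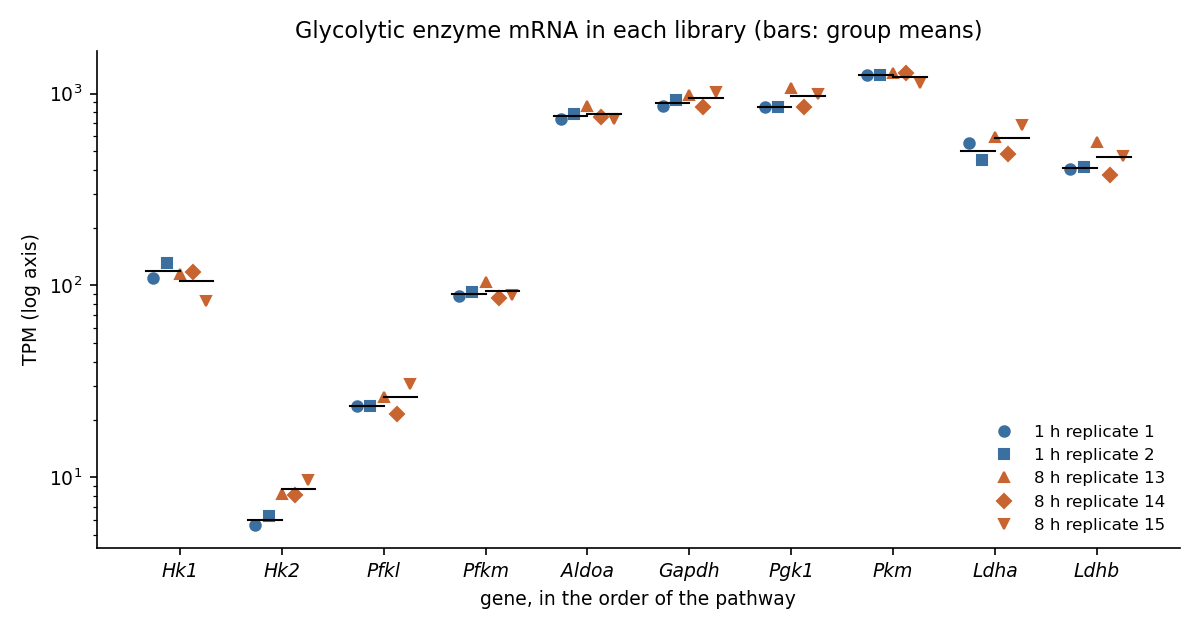
TPM of the 10 members (log axis) in the 2 libraries at 1 h (blue) and the 3 libraries at 8 h (orange), with black bars for group means. Pkm lies highest and Hk2 lowest, and Hk2 is the member whose 8 h libraries all lie above both 1 h libraries.

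By TPM, hexokinase mRNA was mostly Hk1, with a smaller lead by coverage as given further on. Hk1 (chr10:62268855-62379908, minus strand, GRCm38) encodes the hexokinase that brain cells use as a rule, which binds the outer mitochondrial membrane. It stood at 109 and 130.4 TPM in 1 h replicates 1 and 2, and at 115, 118.1 and 83.0 TPM in 8 h replicates 13, 14 and 15. The lowest value was that of 8 h replicate 15, with the other libraries close together above it, so that the groups overlapped. Hk2 (chr6:82725025-82774454, minus strand) encodes the inducible hexokinase of muscle, fat and many tumours. It stood at 5.62 and 6.29 TPM at 1 h and at 8.21, 8.07 and 9.71 TPM at 8 h. All 3 libraries at 8 h were above both at 1 h, on a low level in each. Of the summed TPM of Hk1, Hk2, Hk3 and Hkdc1, Hk1 made up 88.6% to 95.2% and Hk2 4.59% to 10.4%, with Hkdc1 at up to 1.04% and Hk3 at up to 0.0274%.

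Promoter sequences of both hexokinase genes are shown because these isozymes differed most in level. They are RefSeq sequences of build GRCm38.p6, 250 bases before to 50 bases after an annotated start, written 5′ to 3′ on the gene's strand. Capitals mark ACGTG or GCGTG on either strand (CACGT or CACGC as printed), the core letters bound by hypoxia-inducible and related factors. The Hk1 window lies at chr10:62340372-62340671 (minus strand) and the Hk2 window at chr6:82774405-82774704 (minus strand).
Hk1 promoter: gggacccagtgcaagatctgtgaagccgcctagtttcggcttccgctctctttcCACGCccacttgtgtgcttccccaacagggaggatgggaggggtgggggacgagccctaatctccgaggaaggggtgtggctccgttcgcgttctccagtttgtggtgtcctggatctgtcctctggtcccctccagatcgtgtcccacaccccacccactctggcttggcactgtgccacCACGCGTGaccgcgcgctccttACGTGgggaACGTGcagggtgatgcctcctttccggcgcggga
Hk2 promoter: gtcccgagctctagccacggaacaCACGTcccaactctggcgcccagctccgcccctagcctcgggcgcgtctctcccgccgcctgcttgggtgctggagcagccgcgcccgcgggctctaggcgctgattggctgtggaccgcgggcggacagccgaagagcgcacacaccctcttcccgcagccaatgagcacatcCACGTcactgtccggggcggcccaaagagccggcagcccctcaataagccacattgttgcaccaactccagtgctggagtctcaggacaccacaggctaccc
The Hk1 window held 5 matches, of which a pair overlap, and the Hk2 window 2. A further Hk1 start, at chr10:62379859-62380158, held 0. Of 32851 RefSeq mouse promoter windows of this length, 43.8% held at least 1 match, 20.6% at least 2 and 3.86% at least 4. Over the members, 14 of 18 annotated starts held a match, and each of the 10 genes had at least 1 such start. Windows of neighbouring starts of Pfkm and of Aldoa overlap and share a match, so the starts are not separate counts. The share of all genes with a match at any start was not computed. These are matches of letters and were not measured as binding.

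Phosphofructokinase mRNA was led by Pfkm. Pfkm (chr15:98092589-98132447, plus strand), the subunit named for muscle, stood at 88.0 and 92.9 TPM at 1 h and at 104, 86.3 and 89.7 TPM at 8 h. Pfkl (chr10:77986947-78010083, minus strand), the subunit named for liver, stood at 23.4 and 23.5 TPM at 1 h and at 26.2, 21.5 and 30.7 TPM at 8 h. In both genes 8 h replicate 14 lay below the 1 h libraries and 8 h replicate 13 above them. With the platelet subunit Pfkp counted in, Pfkm held 55.4% to 63.3% of the step's TPM, Pfkp 20.8% to 27.6% and Pfkl 14.8% to 19.0%. The enzyme is a tetramer of these subunits, and what tetramers formed was not measured.

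The middle of the pathway was carried by single dominant genes. Aldoa (chr7:126795234-126800751, minus strand), the aldolase of muscle and most other tissues, stood at 741 and 784 TPM at 1 h and at 865, 759.9 and 736 TPM at 8 h. It held 76.5% to 86.5% of aldolase TPM, and Aldoc, the aldolase typical of astrocytes, held 13.5% to 23.5%. The Aldoc share was 22.0% and 23.5% in 8 h replicates 13 and 15 and 13.5% to 16.4% in the 3 libraries of series 1, so it separated the identifier series and not the times, as did the mature astrocyte markers given above. Gapdh (chr6:125161715-125166467, minus strand), which makes NADH at the start of the energy-yielding phase, stood at 859 and 932 TPM at 1 h and at 985, 853 and 1019 TPM at 8 h. Pgk1 (chrX:106187100-106203699, plus strand), which makes ATP from 1,3-bisphosphoglycerate, stood at 849.5 and 855 TPM at 1 h and at 1071, 848 and 1002 TPM at 8 h. The Pgk1 values of the series 1 libraries thus lay close together, and both series 2 libraries were higher. Pgk1 is X-linked and the series differed in Xist and Y-linked RNA as given above, and the part of this in the Pgk1 values was not tested. Pkm (chr9:59656368-59679375, plus strand), whose alternative exons give the pyruvate kinase forms M1 and M2, stood at 1244 and 1249 TPM at 1 h and at 1275, 1276 and 1131 TPM at 8 h. Its 2 forms cannot be separated in gene-level tables.

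Both lactate dehydrogenase genes were abundant. Ldha (chr7:46841475-46855627, plus strand) encodes the M subunit, which favours lactate production, and stood at 551 and 452 TPM at 1 h and at 592, 486 and 685 TPM at 8 h. Ldhb (chr6:142490249-142507957, minus strand) encodes the H subunit, typical of tissues that oxidise lactate, and stood at 404 and 414 TPM at 1 h and at 559, 378 and 474 TPM at 8 h. Ldha was above Ldhb in 5 of 5 libraries by TPM, with 51.4% to 59.1% of the step, while Ldhc was listed at 0 in all of them. Both groups overlapped for both genes.

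The promoters of both lactate dehydrogenase genes are printed in the same form, because they differ in how often the core occurs. The Ldha window lies at chr7:46845554-46845853 (plus strand) and the Ldhb window at chr6:142507908-142508207 (minus strand), with capitals as above.
Ldha promoter: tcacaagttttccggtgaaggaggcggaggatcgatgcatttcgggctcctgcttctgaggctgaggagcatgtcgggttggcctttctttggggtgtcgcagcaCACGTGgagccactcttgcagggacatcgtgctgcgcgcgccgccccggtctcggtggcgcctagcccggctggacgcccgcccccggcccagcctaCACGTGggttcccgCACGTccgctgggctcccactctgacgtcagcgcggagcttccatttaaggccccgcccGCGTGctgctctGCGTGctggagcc
Ldhb promoter: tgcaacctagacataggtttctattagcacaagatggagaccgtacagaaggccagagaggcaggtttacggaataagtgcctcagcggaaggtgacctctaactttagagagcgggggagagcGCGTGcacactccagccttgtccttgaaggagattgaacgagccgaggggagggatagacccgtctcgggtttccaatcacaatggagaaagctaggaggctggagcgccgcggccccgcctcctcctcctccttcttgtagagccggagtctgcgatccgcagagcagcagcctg
The Ldha window held 7 matches and the Ldhb window 1. In the Ldha window 2 places read CACGTG, which is its own reverse complement and counts as a match on each strand. CACGTG was present in 7.15% of all promoter windows and at 2 or more places in 0.594%. The other annotated Ldha start, at chr7:46846832-46847131, held 2 matches of the core.

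**Figure D2:**
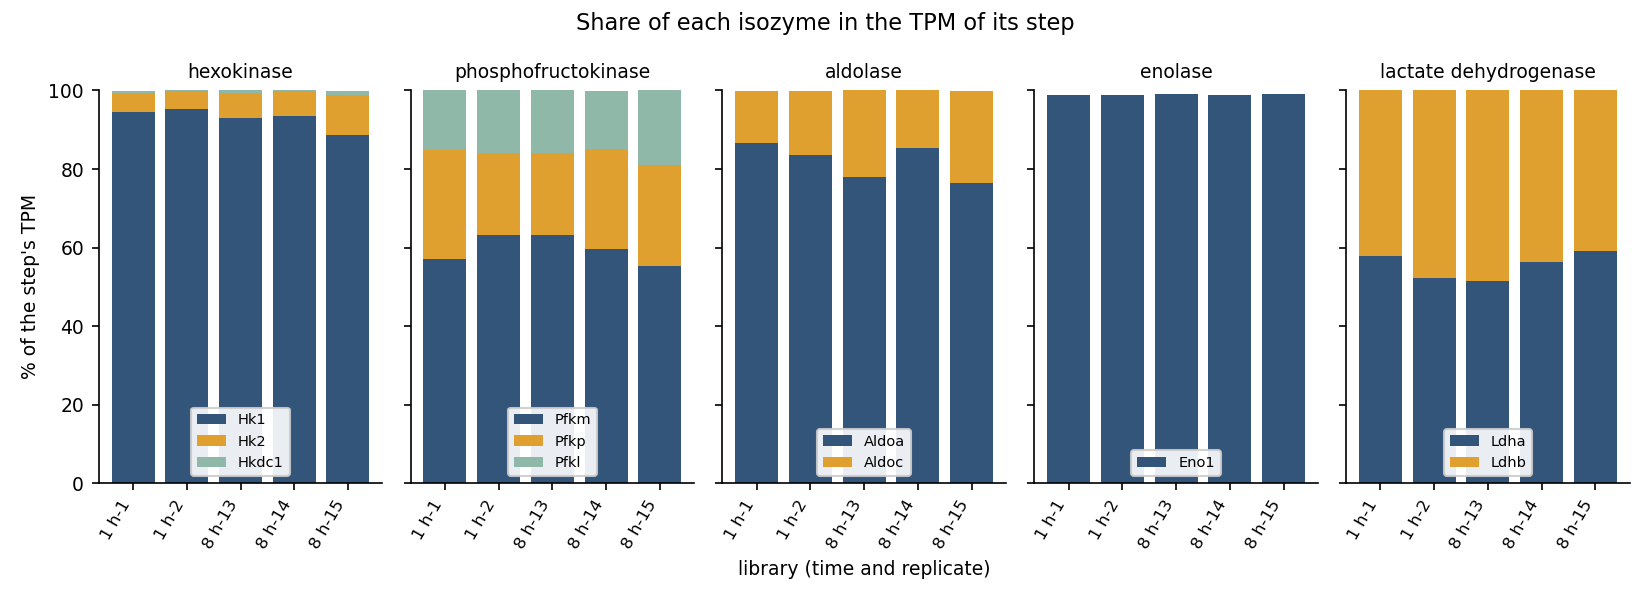
Share of each isozyme gene in the TPM of its step (%, linear axis from 0), by library, with hexokinase as Hk1, Hk2, Hk3 and Hkdc1, for genes reaching 1% of the step in any library. Hk1, Aldoa and Eno1 dominate their steps, whereas Pfkm shares its step with Pfkp and Pfkl, and Ldha and Ldhb are near parity.

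The question of the time comparison was whether the mRNA of these enzymes differed between 8 h and 1 h after the sham exposure. By limma on log2(TPM + 1), 0 of 10 members were called (Benjamini-Hochberg adjusted p no higher than 0.05 with a change of more than 1 on the log2 scale), against 6 of 13870 genes (0.0433%). At an unadjusted p under 0.05 the count was 1 member, Hk2, against 12.3% of all genes tested. The groups did not overlap for 1 of 10 members, again Hk2, against 33.1% of all genes, and 23.7% of all genes had all 8 h libraries above both 1 h libraries. The member counts were thus at or below the background. The median log2 fold change was 0.11 over the members and 0.10 over all genes tested. Because that shift of all genes moves with the scaling, directions are to be read relative to it: 8 of 10 members were higher at 8 h on TPM, and 5 of 10 after median-ratio scaling, which brought the median of all genes to 0.0018. In bulk RNA, a lower share of a cell type and less RNA per cell cannot be told apart.

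Hk2 had the largest fitted change of the members. Its log2 fold change was 0.47 ± 0.15 (SE; 95% interval 0.10 to 0.84), with a limma p of 0.021 unadjusted and 0.369 after Benjamini-Hochberg adjustment over all genes. With the identifier series as a term in limma the value was 0.38 ± 0.17. As given above, values with that term compare 8 h replicate 14 alone with the 1 h libraries. Ldha had 0.22 ± 0.17, Pgk1 0.18 ± 0.13 and Ldhb 0.18 ± 0.17 in log2 fold change. Those 3 values became -0.038, -0.0072 and -0.11 with the series as a term, so their higher means at 8 h came with 8 h replicates 13 and 15. Hk1 was the member with the lowest value, -0.19 ± 0.18. It moved to -0.014 with the series as a term, to -0.030 without 8 h replicate 15 and to -0.064 without 1 h replicate 2. The remaining members, Pfkl (0.14), Gapdh (0.086), Aldoa (0.043), Pfkm (0.042) and Pkm (-0.025), were near 0 on the log2 scale, and their 95% intervals reached from -0.28 at the lowest to 0.54 at the highest. With the series as a term these 5 lay between -0.12 (Pfkl) and 0.034 (Pkm). Leaving out 8 h replicate 14 leaves series 1 alone at 1 h and series 2 alone at 8 h, so that time and series, with its Xist, Y-linked, mitochondrial and marker differences, cannot be told apart. In that fit 568 genes were called in place of 6, and 4 members had an unadjusted p under 0.05 (Hk2, Pgk1, Ldha and Ldhb, with limma adjusted p of 0.0554, 0.0504, 0.103 and 0.0695), while the count of members called remained 0.

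**Figure D3:**
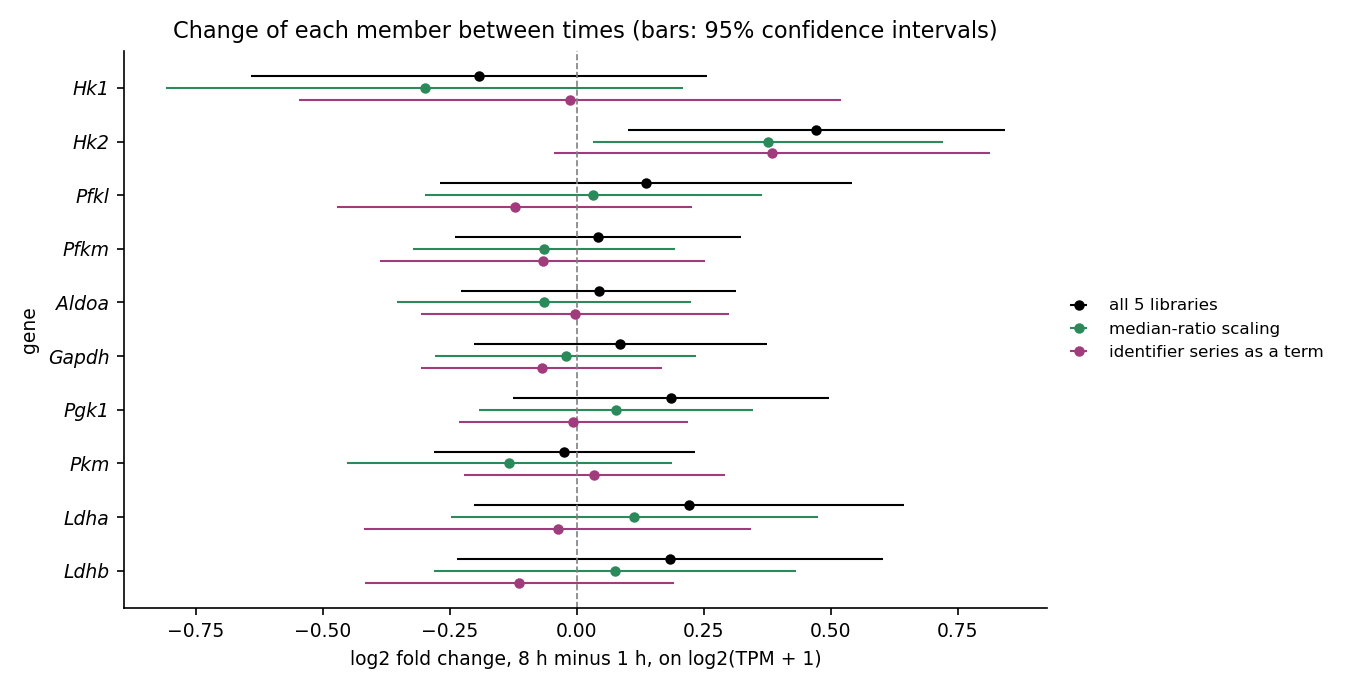
Log2 fold change of each member, 8 h minus 1 h, on the log2(TPM + 1) scale with 95% confidence intervals from limma, in all 5 libraries as deposited (black), after median-ratio scaling (green) and with the identifier series as a term (purple). The Hk2 interval is above 0 in the deposited values, 0.10 to 0.84, and after scaling, and includes 0 with the series as a term.

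The deposited counts gave another measurement of 7 members, with columns taken by name. As given above, the 8 h columns did not follow the TPM tables of the same name. Those named replicates 13 and 15 were closest to the tables of replicates 14 and 13, and that named replicate 14 was close to none. A column and a table of the same 8 h name are therefore not shown to be the same library. edgeR called 0 of the 7 listed members and 0 of 7590 genes (0%), with 199 genes at an unadjusted p under 0.05. DESeq2 and limma-voom also called 0 genes, with 227 and 178 at an unadjusted p under 0.05. Hk1 was the listed member with the smallest p, with a log2 fold change of -0.25 ± 0.10 (edgeR unadjusted p = 0.0411, adjusted p = 0.966). For edgeR the value after ± is an SE worked back from the fold change and the F statistic of the test. Hk2, measured by 308 and 416 reads at 1 h and by 571, 372 and 540 reads at 8 h, had 0.26 ± 0.15 (edgeR adjusted p = 0.966). With the identifier series as a term in edgeR, Hk2 was at 0.087 ± 0.17 and Hk1 at -0.25 ± 0.14. That term took the series of each column from its name. These values therefore compare the column named 8 h replicate 14 alone with the 1 h columns. The column named 8 h replicate 13, placed in series 2 by its name, was closest to the TPM table of a series 1 library. The term therefore does not adjust for the series differences given above. In CPM, counts scaled to the library total, the 8 h columns of Hk2 (31.7, 25.7 and 29.1) were above both 1 h columns (22.0 and 25.2), by a small margin for the column named replicate 14. Hk1 in CPM did not overlap either, at 402 and 399.99 in the 1 h columns and at 362, 347 and 319.6 in the 8 h columns, whereas its TPM values did overlap. The share of all counted genes without overlap in CPM was not computed. By TPM that share was 33.1% of all genes, so the lack of overlap is not read as a result about Hk1 or Hk2.

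The choice between isozymes was compared as a ratio within each library, which does not depend on the scaling between libraries. Hk1 exceeded Hk2 by 19.4-fold and 20.7-fold in TPM at 1 h, and by 14.0-fold, 14.6-fold and 8.54-fold at 8 h. The ratio was lower in all 3 libraries at 8 h, on average by 0.73 on the log2 scale (1.66-fold). Of single genes, 33.1% did not overlap between the times, and the share among ratios of gene pairs was not computed. The lack of overlap is therefore not read as a result about this pair. The exact two-sided permutation test gave p = 0.1, the smallest that 2 against 3 libraries allow, and 0.3 adjusted over the 3 pairs compared, so the difference could not pass a threshold of 0.05 in this design. In 8 h replicate 14 alone, the library of the same identifier series as the 1 h libraries, the ratio was below the 1 h mean by a log2 difference of -0.45. Leaving out 8 h replicate 15, which had the lowest ratio, gave a difference of -0.48.

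The other ratios overlapped between the times. Ldha to Ldhb was 1.37 and 1.09 in TPM at 1 h and 1.06, 1.29 and 1.45 at 8 h, with a difference of 0.038 on the log2 scale (exact permutation p = 0.8), and of 0.075 within series 1. Pfkm exceeded Pfkl by 3.76-fold and 3.96-fold at 1 h and by 3.98-fold, 4.02-fold and 2.92-fold at 8 h, and the log2 ratio of Pfkl to Pfkm differed by 0.099 (exact permutation p = 1.0), and by -0.059 within series 1. All Pfkm to Pfkl ratios but that of 8 h replicate 15 lay close to each other. A p of this size from 5 libraries does not show that the ratios were equal.

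Which isozyme was ahead depended, for lactate dehydrogenase, on the measure of level. The tables also give a mean coverage per base of each gene, and by that measure Ldhb exceeded Ldha in 5 of 5 libraries, by 1.47-fold to 1.84-fold, the opposite order to TPM. Hk1 stayed above Hk2 by coverage, at 2.86-fold and 3.07-fold at 1 h and at 2.12-fold, 2.17-fold and 1.27-fold at 8 h, and Pfkm stayed above Pfkl by 1.58-fold to 2.20-fold. The Hk1 lead was thus much smaller by coverage than by TPM, but its difference between times was nearly the same, at -0.72 on the log2 scale. Across the members the order by coverage also differed from that by TPM. Hk1, with a mean coverage of 42.9, was below Pfkm (114) and Pfkl (56.7), and Ldhb (1029) was above Gapdh (869) and Aldoa (850). The coverage of a gene relative to its FPKM (fragments scaled for gene length and library size) was at the library's common value for 98.9% of genes with 1 annotated transcript, and at a median of 35.7% of that value for genes with 10 or more. Among the members it was 13.6% to 13.7% for Hk1 (20 annotated transcripts), 34.7% to 44.0% for Ldha (15 transcripts), 82.8% to 83.0% for Ldhb (4 transcripts) and 90.9% to 92.4% for Hk2 (4 transcripts). Reads per kilobase of annotated exon, from the count table, put Hk1 at 588 to 775 and Hk2 at 51.6 to 95.7, an average ratio of 9.62. Ldha was not in the count table, so its order with Ldhb could not be read from counts.

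**Figure D4:**
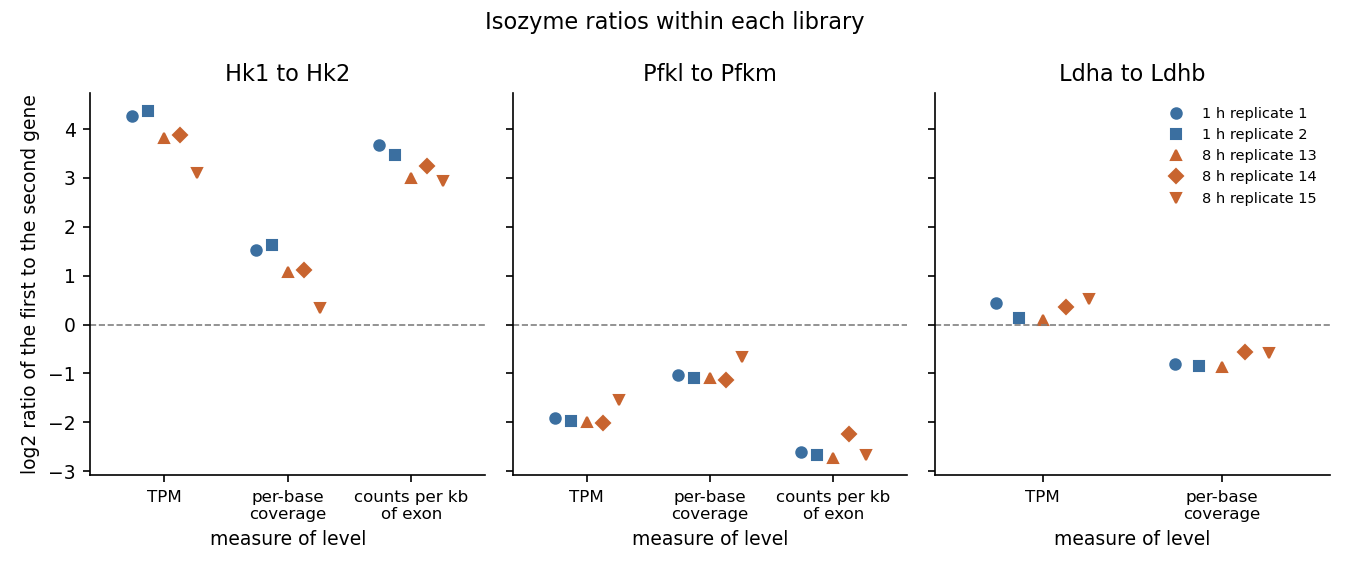
Log2 ratio of each isozyme pair in each library by TPM, by mean coverage per base and, where both genes were in the count table, by counts per kilobase of annotated exon with columns taken by name; blue is 1 h, orange is 8 h and the dashed line is an equal level. Hk1 to Hk2 is above 0 and lower at 8 h by every measure, and Ldha to Ldhb is above 0 by TPM and below 0 by coverage.

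Near-identical pseudogene copies, which can take reads from their parent gene, were counted for each member. Gapdh had 171 annotated copies of at least 90% identity, of which 15 reached 1 TPM, and their sum equalled 24.0% to 27.5% of the TPM of Gapdh. Pgk1 had 2 copies, with 17.7% to 18.8% of its TPM. The levels of Gapdh and Pgk1 are uncertain by these amounts. For Aldoa, Pkm, Ldha and Ldhb the copies came to at most 1.09% of the parent, and Hk1, Hk2, Pfkl and Pfkm had 0. Adding the copies changed no member's fitted direction, with Gapdh at 0.098 and Pgk1 at 0.18 in log2 fold change.

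The rest of the pathway showed the same lack of calls. Of 23 other glycolytic enzyme genes 10 passed the filter of 1 TPM, and 0 were called, against the 6 of 13870 given above, with a median log2 fold change of 0.087. Those above 10 TPM were Gpi1 (652 to 847 TPM), Eno1 (757 to 856), Pgam1 (384 to 448), Tpi1 (206 to 276), Aldoc (116 to 244), Bpgm (51.1 to 56.5), Pfkp (30.5 to 42.5) and Adpgk (21.6 to 35.1). Eno1 made up 98.9% to 99.1% of enolase TPM, with the neuronal Eno2 at no more than 0.599%. Adpgk, whose product phosphorylates glucose with ADP, was the single gene of this list with an unadjusted p under 0.05 (log2 fold change 0.53 ± 0.14, limma adjusted p = 0.309), 1 of 10 against 12.3% of all genes.

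Among 13 transporters of glucose and lactate, 9 passed the filter and 0 were called (median log2 fold change 0.037). The glucose transporter gene Slc2a1 stood at 27.4 to 38.1 TPM and Slc2a3 at 12.6 to 17.7 TPM. The lactate transporter gene Slc16a1 stood at 30.1 to 56.0 TPM, and Bsg, whose product carries such transporters to the membrane, at 320.5 to 462 TPM. All 18 regulators of flux and pyruvate entry passed the filter and 0 were called (median 0.14), with 3 at an unadjusted p under 0.05 and higher (Tigar, Pdp2, Dlat) and 1 lower (Pdp1), 4 of 18 against 12.3% of all genes. Those above 10 TPM were Pdha1 (276 to 326 TPM), Dld (189.98 to 219), Pdhb (183 to 201), Mpc1 (71.7 to 96.4), Dlat (52.4 to 69.1), Pdhx (51.4 to 58.5), Mpc2 (48.6 to 57.0), Pfkfb3 (16.0 to 31.3), Pdk3 (17.0 to 25.3), Pdk2 (16.5 to 20.2) and Pfkfb2 (12.3 to 17.6). They encode pyruvate dehydrogenase subunits and kinases, the mitochondrial pyruvate carrier, and enzymes that set the activator of phosphofructokinase.

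The pentose phosphate branch, which draws on glucose-6-phosphate for NADPH and ribose, had 8 of 8 genes above the filter and 0 called (median 0.12). Its levels were 244 to 299 TPM for Tkt, 216 to 246 for Taldo1, 126 to 145 for Pgd, 80.2 to 92.1 for G6pdx, 51.7 to 94.2 for Pgls, 46.0 to 57.0 for Rpe and 11.8 to 26.0 for Rpia, and Rpia was the 1 gene of 8 with an unadjusted p under 0.05, against 12.3% of all genes. Of 8 gluconeogenic genes, 3 passed the filter and 0 were called (median 0.21), namely G6pc3 (32.9 to 45.6 TPM), Pcx (21.5 to 42.3) and Pck2 (9.51 to 15.2), while the other 5 had means of at most 0.0771 TPM. All 6 genes of splicing factors that act on the alternative Pkm exons were expressed and 0 were called (median 0.18). They were Hnrnpa1 (1132 to 1498 TPM), Hnrnpa2b1 (663 to 900.1), Srsf3 (305 to 455), Ptbp1 (105 to 214), Ptbp2 (80.4 to 124) and Rbm4 (32.8 to 43.2). Ptbp1 was thus above the neuronal Ptbp2 in 4 of 5 libraries by TPM, 1 h replicate 1 being the exception at 105 against 124.

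Genes whose pattern over the 5 libraries was most like that of an isozyme were sought by the smallest root mean square difference of centred log2(TPM + 1), among genes whose own spread was at least 0.5 of the member's. For Hk1 these were Narfl (0.030), Nat9 (0.043) and Atp6v0b (0.044), out of 6284 genes. For Hk2 they were Zfp125 (0.034), Pus1 (0.042) and Bahd1 (0.045), out of 5608 genes. Ldha was closest to Etaa1 (0.013), Otud6b (0.023) and Dmd (0.032), out of 6457 genes, and Ldhb to Mrpl12 (0.024), Clpb (0.034) and Tuba1b (0.034), out of 6684 genes. None of these 12 genes was shared between members. With 5 libraries, likeness of this kind is a description of a pattern only.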

How the data were processed

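RNA was sequenced by the study from stranded, poly-A selected libraries, and groups were taken from the labels. The authors aligned reads to GRCm38 with STAR through nf-core/rnaseq and counted them with featureCounts, and the deposited counts are raw whole numbers for part of the genes (7471 of the 13870 with a mean TPM of at least 1), with 0 blank rows and 0 unassigned columns. The submitters' processing notes name bcl2fastq 2.19.1.403. The authors also deposited TPM, FPKM and mean coverage per gene for each library, in the layout of StringTie (software not given in the sources used here). Extra rows of a gene identifier (15 to 20 per table) were added up. Depth limits the precision of low members (Hk2, 308 to 571 reads), and no interval on counting error was computed.

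Members and gene lists were chosen with earlier results of these data known. Named genes were the 10 members, every listed gene with a mean of at least 10 TPM, and the 3 most similar genes for Hk1, Hk2, Ldha and Ldhb; Tigar, Pdp1 and Pdp2 were named after their values were seen. Expression was tested with limma 3.58.1 with an intensity trend on log2(TPM + 1), for genes with a mean of at least 1 TPM, and with edgeR 4.0.16 (quasi-likelihood test, TMM, filterByExpr) on counts, in R 4.3.3, with Benjamini-Hochberg adjustment over all genes tested. Calls needed an adjusted p no higher than 0.05 with a change of more than 1 on the log2 scale, the thresholds of the study for its other RNA-seq data. Fold changes on log2(TPM + 1) understate the change of low genes. Alternatives included DESeq2 1.42.0 (alpha 0.1), limma-voom, a pseudocount of 0.1, a filter of 5 TPM or none, median-ratio scaling and leaving out each library. Isozyme ratios were compared by exact permutation over libraries. P-values measure only the spread between these libraries. Both fits were tested on simulated data. Copies were pseudogenes matched to a member by blastn 2.17.0 at 90% identity or more over at least 300 bases and 50% of their length. Gene coordinates are those of the tables, and 83.2% of 45143 shared genes had identical coordinates in GENCODE vM21. Promoters were taken from RefSeq (GRCm38.p6).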

Additional observations from a re-analysis of the deposited data

How the results depend on the processing

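The count of members called was 0 under every alternative run, for TPM and for counts. The count of all genes called from TPM was 6, and it was 0 with no filter on low values, 1 with a mean TPM of at least 5, 19 with the identifier series as a term and 0 to 568 when a library was left out (568 without 8 h replicate 14, 0 without either 1 h replicate or without 8 h replicate 15, 1 without 8 h replicate 13). Leaving out a 1 h library leaves 1, which limma then assumes to vary like the others. The lower Hk1 to Hk2 ratio at 8 h kept its direction under all alternatives, with leave-one-out differences from -0.87 to -0.48. With a pseudocount of 1 the difference was -0.66, and the exact permutation p was 0.2 in place of 0.1. The log2 level of Hk1 over Hk2, 3.89 by TPM, was 1.14 by coverage and 3.27 by counts per kilobase, the latter chosen after seeing the data. That of Pfkl over Pfkm, -1.89 by TPM, was -1.002 by coverage and -2.58 by counts per kilobase, and that of Ldha over Ldhb, 0.31, was -0.73 by coverage. The time difference of Ldha to Ldhb ranged from -0.12 to 0.20 with a library left out. That of Pfkl to Pfkm ranged from -0.052 to 0.18, and was -0.059 in series 1 alone.

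Fold changes of members turned sign in 30 of 210 recomputed values, none of them called. These included Ldha, Pgk1 and Ldhb, with 0.22, 0.18 and 0.18 in the reported fit. With the series as a term, and equally in series 1 alone, the log2 values were -0.12 for Pfkl, -0.067 for Pfkm, -0.0037 for Aldoa, -0.069 for Gapdh, -0.0072 for Pgk1, 0.034 for Pkm, -0.038 for Ldha and -0.11 for Ldhb. Under median-ratio scaling Pfkm was at -0.065, Aldoa at -0.065 and Gapdh at -0.022. With mitochondrial genes left out Pfkm was at -0.0099 and Aldoa at -0.0086, and with FPKM they were at -0.022 and -0.021. With a library left out, the TPM values ranged from -0.040 to 0.096 for Pfkm, from -0.027 to 0.090 for Aldoa (both lowest without 8 h replicate 13) and from -0.054 to 0.033 for Pkm (highest without 8 h replicate 15). Those from counts, lowest without 8 h replicate 14, ranged from -0.066 to 0.12 for Pfkl, from -0.011 to 0.12 for Aldoa and from -0.070 to 0.099 for Pkm. The cause of these turns was not tested. No paired analysis was run. The 1 h and 8 h groups share no replicate number, and the labels used here do not say which libraries share an animal or culture. With 2 and 3 libraries, changes smaller than the intervals given could not be detected.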
